A study of Mus musculus with 24 samples.

Results

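The serum of mice fed a steatohepatitis diet for 6 weeks was compared with serum of chow-fed mice of the same age, over all miRNAs that the array software detected on at least 2 of the 4 arrays of that week. By this rule 326 of the 1881 mouse miRNAs on the array were kept. The NASH group (non-alcoholic steatohepatitis) held 2 arrays from male C57BL/6NJcl mice, 12 weeks old, that had eaten a choline-deficient high-fat diet (CDAHFD) with 0.1% added methionine for 6 weeks. The control group held 2 arrays from male mice of that strain and age on the solid chow CE-2. All mice had been bought at 5 weeks of age and acclimatized for 1 week, and food and water were freely available. The series also holds serum of weeks 1 and 2 and liver of all 3 weeks, with 2 arrays per diet, week and tissue and 24 arrays in all. Whether a group's 2 arrays hold RNA of different mice or of pooled serum is not stated, so p-values here rest on a spread that could be technical. Mature miRNAs were measured in RNA from 200 µL of serum drawn from the heart, of which 2.5 ng was labelled with the dye Cy3 and hybridised to a 1-colour Agilent array.

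A mature miRNA is a short RNA that guides Argonaute proteins to messenger RNAs, mainly through its seed (bases 2 to 8), and lowers their translation or stability. Serum holds miRNAs released by blood cells, liver, muscle and other tissues, in vesicles or bound to proteins. miR-122-5p is the dominant miRNA of hepatocytes and is widely used in serum as a marker of hepatocyte injury, while miR-451a is a red blood cell miRNA whose serum level is used to judge haemolysis.

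The sequences below are those of 11 miRNAs described in the text, as given by RefSeq on GRCm38.p6, 5′ to 3′ with the seed in capitals. The first 6 were higher on the NASH arrays, the next 3 were lower, and the last 2 are red cell miRNAs.
miR-34a-5p: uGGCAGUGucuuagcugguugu
miR-342-3p: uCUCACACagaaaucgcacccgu
miR-192-5p: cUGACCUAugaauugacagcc
miR-148a-3p: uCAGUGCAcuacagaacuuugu
miR-221-3p: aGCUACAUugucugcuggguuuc
miR-6931-5p: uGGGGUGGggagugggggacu
miR-133b-3p: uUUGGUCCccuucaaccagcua
miR-205-5p: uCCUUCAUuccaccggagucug
miR-214-3p: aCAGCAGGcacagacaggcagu
miR-451a: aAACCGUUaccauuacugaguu
miR-144-3p: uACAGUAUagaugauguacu
None of these 11 shares its seed with another of the set. Among all 326 miRNAs, 265 matched a RefSeq mature sequence by name. miR-122-5p and miR-375-3p did not, and so are not shown above. miR-34a-5p lies at chr4:150068473-150068494 on the plus strand, miR-192-5p at chr19:6264857-6264877 on the plus strand, and miR-205-5p at chr1:193507503-193507524 on the minus strand. The red cell miRNAs miR-144-3p (chr11:78073047-78073066) and miR-451a (chr11:78073186-78073207) are neighbours on the plus strand of chromosome 11.

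Signals were divided by each array's 75th percentile over 253 probes that were well above background on all 12 serum arrays, so that a scaled signal of 1 equals that percentile. The percentile itself differed between the diets. It was 338 and 408 intensity units on the NASH arrays against 168 and 190 on the control arrays, a difference of 1.06 on the log2 scale. The labelling spike-ins of the 2 diets differed by 0.01 and the hybridization spike-ins by -0.04 (log2). The software detected 315 and 330 miRNAs on the NASH arrays, against 275 and 257 on the control arrays. All 4 arrays lay on 1 slide, the NASH arrays in its second column and the control arrays in its first, so diet and column cannot be told apart. Because of the unequal percentiles, differences are given below as scaled and, where the choice matters, also without scaling. For the 206 miRNAs detected on all 4 arrays the median NASH minus control difference was -0.39 scaled and 0.50 without scaling (log2).

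The NASH and control serum profiles differed in both directions. limma, fitted to the 6 diet-by-week groups of serum with Benjamini-Hochberg adjustment over the 426 miRNAs tested, called 51 miRNAs at adjusted p below 0.05, which is 12.0% of those tested. Of these 23 (5.40%) were higher on the NASH arrays and 28 (6.57%) were lower, and all 51 belonged to the 326. With the 4 arrays of week 6 fitted alone, limma called 1 miRNA and 0 of these 51. Without scaling 30 were called (7.04%), 29 higher (6.81%) and 1 lower (0.235%), of which 19 higher and 1 lower were also called with scaling. The sign of 47 of the 51 calls was the same with scaling, without it, and with 3 other scalings. The exceptions were miR-1249-3p and miR-712-5p, which lay above 0 without scaling, and miR-155-5p and miR-200c-3p, which then lay at the floor on all 4 arrays. That count covers the scaling alone. With another background correction (normexp), 10 of the 23 higher calls passed as higher, and all 28 lower calls passed as lower. The NASH and control arrays did not overlap for 182 of 426 miRNAs (42.7%), 53 with NASH higher (12.4%) and 129 with NASH lower (30.3%).

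**Figure D1:**
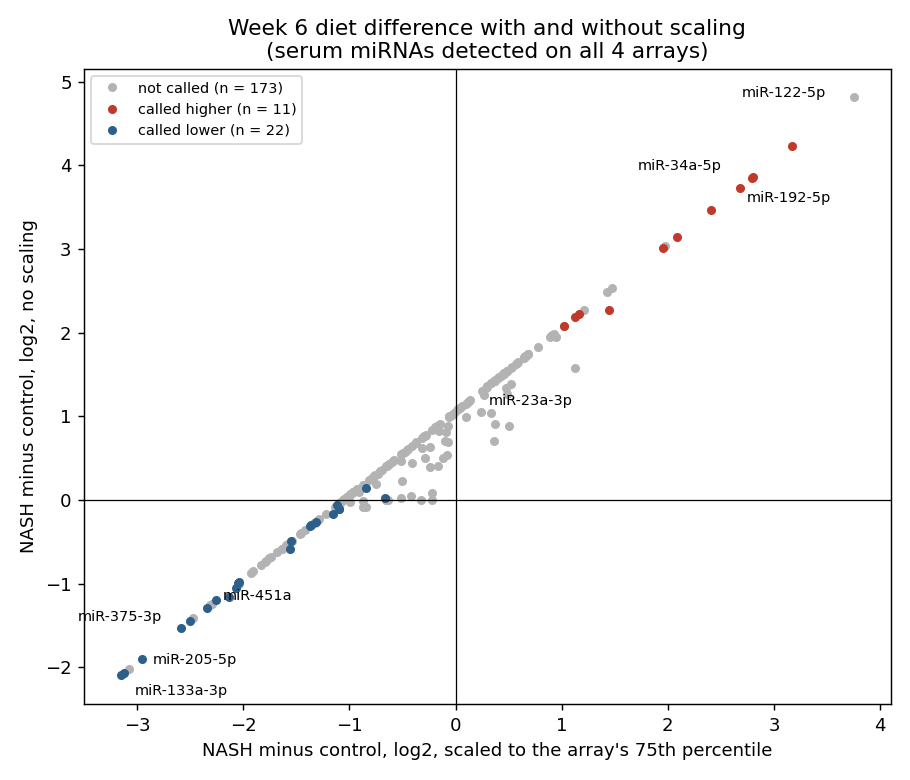
NASH minus control difference at week 6 for the 206 serum miRNAs detected on all 4 arrays, scaled to each array's 75th percentile (x axis, log2) and without scaling (y axis, log2). Points run parallel to the diagonal and about 1.06 above it, so that many miRNAs below 0 with scaling lie above 0 without it, while the calls at both ends keep their side.

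Of 11 hepatocyte-enriched miRNAs, 4 passed as higher on the NASH arrays. miR-122-5p had scaled signals of 18.2 and 25.9 on the NASH arrays, against 1.78 and 1.46 on the control arrays. This was the widest difference of all miRNAs tested (3.75 ± 0.99 log2, SE, 13.5-fold), yet it missed the threshold with scaling (limma adjusted p = 0.0557) and passed it without (4.81 log2, adjusted p = 0.0139). miR-192-5p, a miRNA abundant in liver and gut and linked to p53, had 2.94 and 3.58 on the NASH arrays against 0.552 and 0.468 on the control arrays. It was 6.39-fold higher (2.68 ± 0.39 log2, SE, limma adjusted p = 0.0145). miR-148a-3p, an abundant liver miRNA that in mouse and human targets the LDL receptor, had 0.359 and 0.640 against 0.134 and 0.0955 on control arrays. Its rise was 4.24-fold (2.08 ± 0.35 log2, SE, limma adjusted p = 0.0159). miR-22-3p rose 2.03-fold, to 10.5 and 9.36 in NASH serum against 5.93 and 4.01 in control serum (limma adjusted p = 0.0472). For these 4 miRNAs the NASH and control arrays did not overlap, which held with NASH higher for 53 of all 426 tested (12.4%). miR-122-3p, the other strand of the miR-122 hairpin, was detected on both NASH arrays and on no control array. It was at least 1.27-fold higher (limma adjusted p = 0.0429). Such bounds are in scaled signal, and set the bright group's mean against the lowest signal well above background on each dim array. The level is never taken below the floor of 0.0381. With normexp background correction the difference of miR-122-3p was -0.26 (log2).

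The 4 hepatocyte-enriched miRNAs that passed as higher were named above (miR-192-5p, miR-148a-3p, miR-122-3p and miR-22-3p), 0 passed as lower and 7 did not pass. The median difference of the 11 was 0.43 scaled and 1.12 without scaling, against 0 for all 426 tested in either case. The members that did not pass other than miR-122-5p lay near the floor or close together between the diets. miR-365-3p, for example, had 0.159 and 0.189 on NASH arrays against 0.166 and 0.108 on control arrays. miR-194-5p, which is transcribed together with miR-192, had 0.0381 (the floor) and 0.0627 on NASH arrays against 0.0614 and 0.0692 on control arrays.

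Other miRNAs with known roles also rose in NASH serum. miR-34a-5p, a direct p53 target, had 1.64 and 1.75 on NASH arrays against 0.292 and 0.202 on control arrays. It was 6.97-fold higher (2.80 ± 0.25 log2, SE, limma adjusted p = 0.00336) and was the 1 tested miRNA of the miR-34 family. miR-342-3p, a miRNA of lymphoid and myeloid cells, had 13.8 and 7.77 on NASH arrays against 1.79 and 1.25 on control arrays. The NASH arrays differed between themselves here, but the lower of them stood well above both control arrays (2.79 ± 0.46 log2, SE, limma adjusted p = 0.0157). miR-221-3p, which promotes hepatocyte and stellate cell proliferation, had 1.05 and 0.704 against 0.238 and 0.206 on control arrays. It was 3.87-fold higher (1.95 ± 0.28 log2, SE, limma adjusted p = 0.0145). Its partner miR-222-3p, which shares the seed GCUACAU, differed by 0.46 and did not pass (limma adjusted p = 0.488). miR-132-3p, a CREB-induced miRNA that is also raised in activated immune cells, had 0.152 and 0.107 against 0.0490 and 0.0401 in control serum. No control array had it well above background, and it was at least 1.99-fold higher on NASH arrays (limma adjusted p = 0.0157). miR-139-3p had 0.163 and 0.167 on NASH arrays, against the floor and 0.0749 on control arrays (limma adjusted p = 0.0493). With normexp background correction the differences of miR-132-3p and miR-139-3p were -0.17 and -0.040 (log2), so their direction depended on the background correction.

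The calls above 0 included many miRNAs with high numbers and little described function. Of the 23 higher calls 12 were numbered 1000 or above, 3 of the 28 lower calls and 115 of all 326 miRNAs. miR-6931-5p had 2.73 and 3.24 on NASH arrays against 0.180 and 0.607 on control arrays (3.17 ± 0.60 log2, SE, limma adjusted p = 0.0208). Its control arrays lay far apart, and the difference was 2.29 without control array 1. miR-2861 had 0.918 and 1.36 on NASH arrays against 0.113 and 0.396 on control arrays (2.41 log2, limma adjusted p = 0.0454). Without control array 1 its difference was 1.50. miR-6907-5p had 0.219 and 0.293 on NASH arrays against the floor and 0.0711 (2.28 log2, limma adjusted p = 0.0295). On no control array were miR-8109, miR-7040-5p and miR-6392-3p well above background. They were at least 3.48-fold, 2.36-fold and 2.19-fold higher on NASH arrays (limma adjusted p = 0.00543, 0.00827 and 0.0174, in that order). With normexp background correction the difference of miR-6392-3p was -0.060 (log2). Many miRNAs of this kind are rich in G and C, as miR-6931-5p and gCGCCGCGugccggccgcggg (miR-8109) show. Over the 166 miRNAs with a RefSeq sequence among the 206 detected on all 4 arrays, GC content and the diet difference had a Pearson r of 0.25 and a Spearman rho of 0.20, which describes these miRNAs and is no test. These miRNAs share the same 4 arrays and labelling reactions. The same Pearson r was -0.10 at week 1 and -0.23 at week 2.

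**Figure D2:**
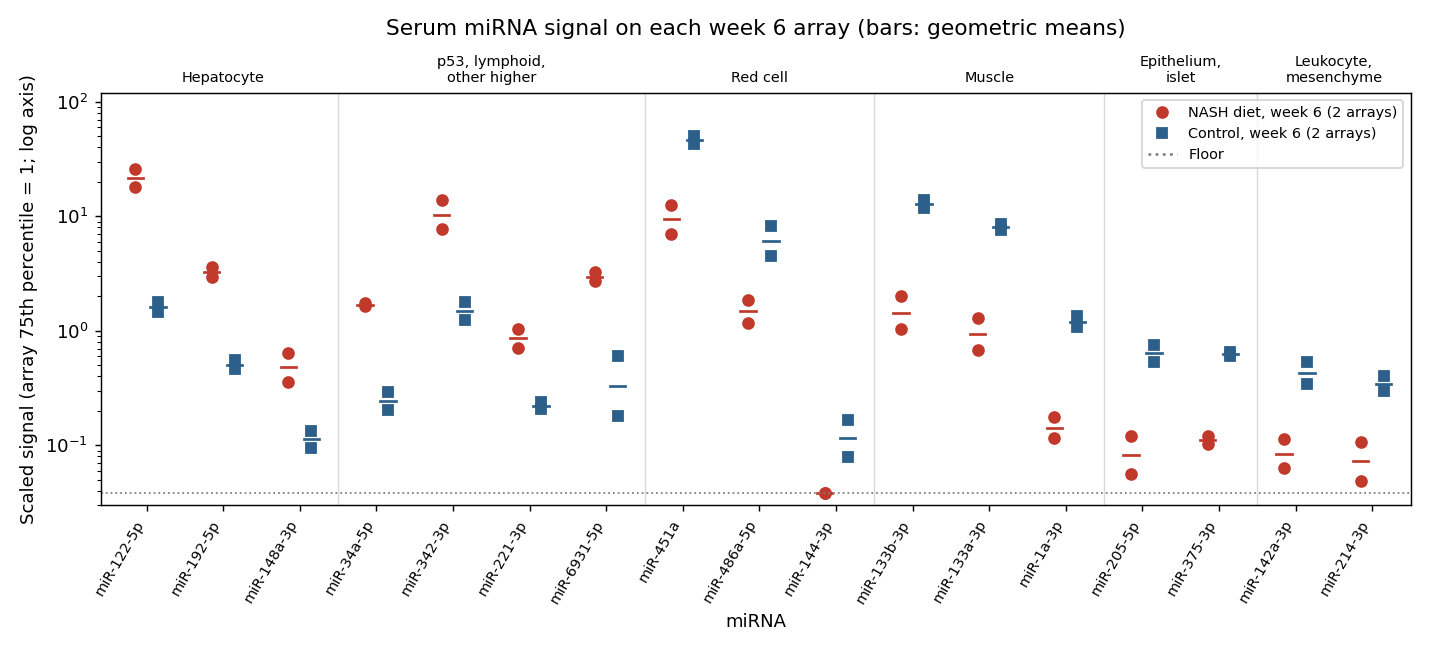
Scaled signal of 17 serum miRNAs on each of the 2 NASH arrays and 2 control arrays of week 6 (y axis, log scale, in units of the array's 75th percentile), grouped along the x axis by the tissue or role of the miRNA. Bars are geometric means and the dotted line is the floor. Hepatocyte miRNAs, miR-34a-5p and miR-342-3p lie above the control arrays among those plotted, and the red cell, muscle, epithelial and islet miRNAs plotted lie below them.

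The muscle miRNAs miR-133b-3p and miR-133a-3p had the most negative differences among the calls. miR-133b-3p had 2.01 and 1.04 on NASH arrays against 13.9 and 11.9 on control arrays, so the groups lay far apart (-3.15 ± 0.58 log2, SE, limma adjusted p = 0.0204). miR-133a-3p, its near copy from another locus, had 1.28 and 0.674 against 8.64 and 7.61 in control serum (-3.12 ± 0.58 log2, SE, limma adjusted p = 0.0204). The probes of such close copies can cross-hybridise, so the 2 are not independent. miR-1a-3p, the most abundant miRNA of heart and skeletal muscle, had 0.176 and 0.115 against 1.35 and 1.08. Its difference was -3.08 ± 1.17 (log2, SE) and did not pass (limma adjusted p = 0.147). Of the 5 muscle miRNAs tested, 2 passed as lower and 3 did not pass, with a median of -3.08 scaled and -2.02 without scaling. Neither miR-133b-3p nor miR-133a-3p passed without scaling (adjusted p = 0.134 and 0.144).

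miR-205-5p, miR-375-3p and miR-214-3p, of epithelium, islets and stellate cells, were lower as well. miR-205-5p, a miRNA of stratified epithelium such as skin, had 0.119 and 0.0561 on NASH arrays against 0.754 and 0.537 on control arrays (-2.96 ± 0.48 log2, SE, limma adjusted p = 0.0157). miR-375-3p, which is most abundant in pancreatic islets and other neuroendocrine cells and restrains insulin secretion, had 0.119 and 0.103 against 0.658 and 0.600 in control serum. It was the 1 miRNA called lower both with scaling (-2.50 ± 0.45 log2, SE, limma adjusted p = 0.0203) and without (-1.44 log2, adjusted p = 0.0258). Of 7 skin and epithelium miRNAs tested, miR-205-5p and miR-200c-3p passed as lower and 5 did not pass, with a median of -0.82 scaled and 0 without scaling. miR-200c-3p was detected on no NASH array, and was at least 1.76-fold lower there (limma adjusted p = 0.0145).

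miR-214-3p, which is expressed in hepatic stellate cells and fibroblasts, had 0.108 and 0.0488 on NASH arrays against 0.297 and 0.403 on control arrays (-2.26 ± 0.37 log2, SE, limma adjusted p = 0.0157). miR-199b-5p, of the miR-199 family, was at the floor on both NASH arrays and had 0.168 and 0.104 on control arrays, at least 3.47-fold lower on NASH arrays (limma adjusted p = 0.0429). In the stellate cell and fibrosis list of 12 tested, these 2 passed as lower, miR-221-3p passed as higher and 9 did not pass. The miR-29 family, which represses collagens, did not pass: its 3 members differed by -0.51 to 0.14 (log2).

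Leukocyte and platelet miRNAs gave a mixed picture. miR-142a-3p, a miRNA found throughout blood cells, had 0.113 and 0.0637 on NASH arrays against 0.537 and 0.346 on control arrays (-2.35 ± 0.51 log2, SE, limma adjusted p = 0.0365). miR-150-5p, of mature lymphocytes, had 0.182 and 0.140 against 0.613 and 0.467 and did not pass (limma adjusted p = 0.0742). miR-223-3p, of neutrophils and platelets, had 6.61 and 4.95 against 8.18 and 6.05, and these ranges overlapped (limma adjusted p = 0.839). Of 12 immune cell miRNAs tested, 2 passed as higher (miR-342-3p and miR-132-3p), 2 as lower (miR-142a-3p and miR-155-5p) and 8 did not pass. Their median was 0 scaled and 0.24 without scaling. miR-155-5p was at the floor on 10 of the 12 serum arrays, with 0.0552 and 0.0587 on the control arrays of week 6, and so its small SE rests on values without spread. Of 5 platelet miRNAs miR-151-5p passed as lower (-1.56 log2, limma adjusted p = 0.0434) and 4 did not pass. The most changed of those 4 was miR-126a-3p, also an endothelial miRNA, with 0.362 and 0.164 on NASH arrays against 2.35 and 0.780 on control arrays (limma adjusted p = 0.0736). Its control arrays lay far apart, and without control array 1 its difference was -1.68.

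Some other lower calls shared their seed with at least 1 more tested miRNA. miR-26a-5p, a growth-restraining miRNA of many tissues, had 0.129 and 0.0587 against 0.724 and 0.377 in control serum (-2.59 ± 0.50 log2, SE, limma adjusted p = 0.0226). miR-497a-5p, of the miR-15/16 seed family (AGCAGCA), had 0.0583 and the floor against 0.257 and 0.168 (-2.14 log2, limma adjusted p = 0.0159). It was the 1 call among 6 members with that seed, which differed by -2.14 to -0.92. miR-103-3p, which in mouse regulates insulin sensitivity, was not well above background on either NASH array and was at least 5.01-fold lower there (limma adjusted p = 0.0410). It was the 1 call among 9 lipid metabolism miRNAs, whose median was -0.37 scaled and 0.69 without scaling, so the list's direction depended on the scaling. miR-193b-3p had 0.126 and 0.0517 against 0.359 and 0.310 in control serum (-2.05 log2, limma adjusted p = 0.0259), and -1.40 without NASH array 2. miR-193a-3p, with the same seed ACUGGCC, differed by 0.43 (adjusted p = 0.121).

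The let-7 family, which restrains growth factor and cell cycle genes, gave no call. All 7 members tested were lower on both NASH arrays than on both control arrays, beside 129 of all 426 miRNAs tested (30.3%). Their differences were -1.83 to -1.22, with a median of -1.58 scaled and -0.52 without scaling. For let-7c-5p the signals were 1.66 and 1.19 against 4.11 and 4.66 in control serum (limma adjusted p = 0.207). The 7 members share the seed GAGGUAG and differ at few bases, as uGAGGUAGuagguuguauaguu (let-7a-5p) and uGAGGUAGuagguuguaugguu (let-7c-5p) show, so that their probes are not independent. In the miR-17-92 and paralogous clusters, miR-93-5p passed as lower (-1.37 log2, limma adjusted p = 0.0159) and 8 others did not pass, and the list's median was -0.35 scaled and 0.03 without scaling.

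Among red cell miRNAs, both strands of miR-486a passed as lower. miR-451a had 12.7 and 7.00 on NASH arrays against 49.98 and 42.9 on control arrays (-2.30 ± 0.59 log2, SE), and just missed the threshold (limma adjusted p = 0.0548). miR-486a-5p, also rich in red cells and muscle, had 1.87 and 1.17 against 4.50 and 8.21 in control serum and passed (-2.04 ± 0.33 log2, SE, limma adjusted p = 0.0157). Its other strand miR-486a-3p passed too (-2.07 log2, limma adjusted p = 0.0157). miR-144-3p was at the floor on both NASH arrays, against 0.168 and 0.0798 on control arrays, at least 3.03-fold lower (limma adjusted p = 0.0736). The sum of the 3 defining red cell miRNAs was 14.6 and 8.21 on NASH arrays against 54.7 and 51.2 on control arrays, and none of the 3 was at the floor on the control arrays. Of the 7 tested miRNAs of the red cell list, 2 passed as lower and 5 did not pass, with a median of -1.60 scaled and -0.57 without scaling. miR-486b-3p, which is not in that list, was also among the calls. miR-16-5p (1.83 to 2.28 against 3.61 to 4.76) and miR-25-3p lay lower with scaling and, at 0.04 and 0.03 log2, level without it.

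The red cell index, the log2 signal of miR-451a less that of miR-23a-3p, does not depend on the scaling factor. It was -0.11 and -0.25 on NASH arrays against 2.23 and 2.50 on control arrays, a difference of -2.54. The groups did not overlap, but the two-sided exact permutation test over 4 arrays could not go below p = 0.333, the value it gave. miR-23a-3p itself had 13.7 and 8.33 against 10.7 and 7.59 in control serum. Since the index separated the diets at week 6, its part in the other differences was not tested on these 4 arrays alone. With the index of each array as a covariate over all 12 serum arrays, limma called 0 of 426 miRNAs, and 17 had an unadjusted p below 0.05 (109 without the covariate). All 51 calls kept their sign with it, with a median absolute difference of 1.15 (log2) against 1.56 without the covariate. Their median SE was 0.65 against 0.30. Some miRNAs that were not called changed sign with it, among them miR-451a (to 0.19) and miR-1a-3p (to 2.38). The fit takes the index's slope from differences between replicate arrays, all smaller than the diet difference in the index at week 6. Kept signs therefore cannot show the part of the index in the calls.

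**Figure D3:**
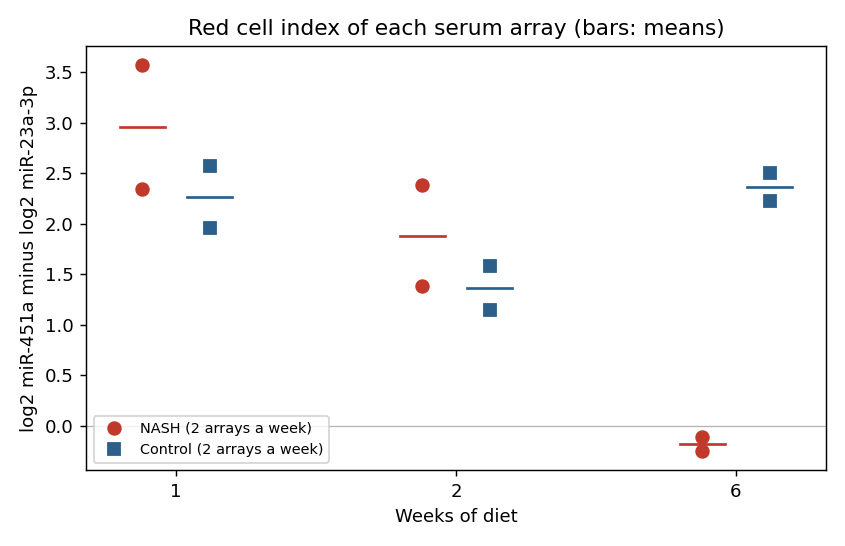
Red cell index (y axis, log2 signal of miR-451a less that of miR-23a-3p) of each serum array by weeks of diet (x axis), with NASH arrays left of control arrays and bars for the means of 2 arrays. At week 6 the NASH arrays lie at -0.11 and -0.25, below the control arrays at 2.23 and 2.50. At weeks 1 and 2 the NASH mean is the higher one, but the diets overlap.

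The earlier weeks had their own NASH and control arrays. The mean index was higher in NASH there, but the diets overlapped. At week 1 it was 2.35 and 3.57 on NASH arrays against 1.96 and 2.57 on control arrays. At week 2 it was 1.38 and 2.38 against 1.58 and 1.15. NASH minus control differences of the index were 0.70 at week 1 and 0.52 at week 2. They came from miR-23a-3p, which differed by -0.70 and -0.53, while miR-451a hardly differed. limma called 6 miRNAs at week 1 (1.41% of 426) and 11 at week 2 (2.58%), of which 4 and 8 were among the 51 calls of week 6. Of the 51 calls, 38 had the same sign at both earlier weeks, beside 150 of all 426 tested. The 426 include miRNAs at the floor with no difference, which the calls do not, so the shares are not like for like. The log2 differences of miR-192-5p were 2.55, 2.74 and 2.68 at weeks 1, 2 and 6, and it was called each time. Those of miR-122-5p were 3.35, 4.36 and 3.75. miR-205-5p had -3.64, -2.22 and -2.96, and miR-375-3p -1.86, -3.01 and -2.50. miR-122-5p did not pass at week 1 or week 2 (limma adjusted p = 0.209 and 0.0668). miR-34a-5p had 1.18, 2.03 and 2.80, and miR-342-3p 1.08, 1.23 and 2.79. miR-221-3p had 0.01, 0.54 and 1.95.

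miR-451a, miR-1a-3p and let-7c-5p differed little at weeks 1 and 2. miR-451a differed by -0.01 at week 1, -0.01 at week 2 and -2.30 at week 6, and miR-1a-3p by -0.06, 0.13 and -3.08. let-7c-5p had 0.19, 0.25 and -1.64. Other red cell and let-7 miRNAs lay farther from 0 at weeks 1 and 2, with -0.93 and -1.72 for miR-486a-5p, -1.09 and -1.29 for miR-144-3p, -0.63 and -0.69 for miR-25-3p, and 0.68 and 1.48 for let-7g-5p, none of which passed. A limma test of the week 6 difference against the mean of weeks 1 and 2 did not call these over the 426 miRNAs. Its estimate was -2.29 for miR-451a (adjusted p = 0.388), -3.12 for miR-1a-3p (adjusted p = 0.548) and 1.68 for miR-221-3p (adjusted p = 0.129). The 1 miRNA called of 426 (0.235%) was miR-155-5p, which lay at the floor as described, and 42 had an unadjusted p below 0.05. This contrast depended on the setting. With only the 196 miRNAs detected on all 12 serum arrays it called 11, among them miR-1a-3p and miR-451a (adjusted p = 0.0231 each), miR-26a-5p (adjusted p = 0.0231), and miR-221-3p, miR-126a-3p, let-7g-5p and let-7i-5p (adjusted p = 0.0395 each). With slide row as a block it called 12, among them miR-126a-3p, miR-26a-5p, let-7b-5p, let-7g-5p and let-7i-5p, and with median scaling 6, among them miR-221-3p.

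**Figure D4:**
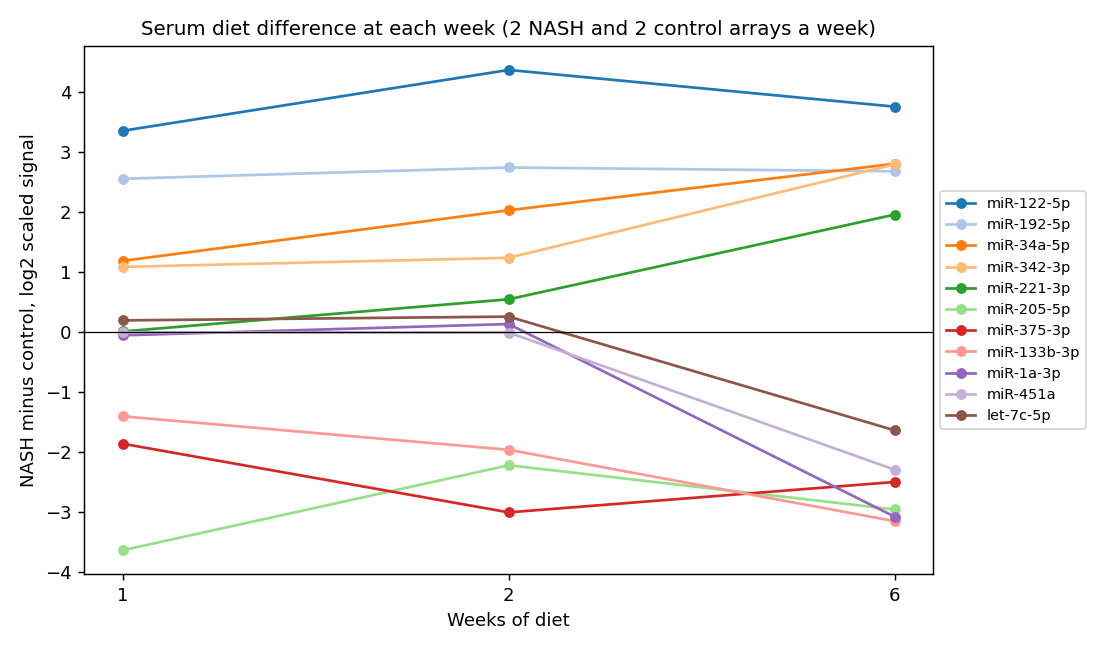
NASH minus control difference (y axis, log2 scaled signal) of 11 serum miRNAs at weeks 1, 2 and 6 (x axis), each point from 2 NASH and 2 control arrays. miR-122-5p and miR-192-5p lie above 0 and miR-205-5p and miR-375-3p below 0 at all 3 weeks, while miR-451a, miR-1a-3p and let-7c-5p lie close to 0 at weeks 1 and 2 and below it at week 6.

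In liver of the same week limma called 110 of 388 miRNAs (28.4%), 62 lower (16.0%) and 48 higher (12.4%). All 11 of the hepatocyte-enriched miRNAs tested in liver were called lower there, with a median of -1.33. The serum and liver differences were then tested against each other in 1 limma fit. Of 293 miRNAs tested in both tissues, 68 differed (23.2%), and in 22 of them (7.51%) serum lay above liver. miR-122-5p differed by 3.75 in serum and -1.25 in liver, so that serum minus liver was 5.00 ± 0.99 (log2, SE, limma adjusted p = 0.00232). miR-192-5p differed by 2.68 in serum and -1.73 in liver, and miR-148a-3p by 2.08 and -0.95. miR-214-3p went the other way, with -2.26 in serum and 1.99 in liver, and serum minus liver was -4.25 ± 0.39 (log2, SE). miR-34a-5p and miR-342-3p were higher in both tissues. miR-34a-5p differed by 2.80 in serum and 3.58 in liver, and miR-342-3p by 2.79 and 2.95, and neither difference between tissues passed (limma adjusted p = 0.104 and 0.870). Among the serum calls that were tested in liver, 17 were higher in serum, of which 5 were called higher and 5 lower in liver. The other 21 were lower in serum, of which 7 were called lower and 6 higher in liver.

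**Figure D5:**
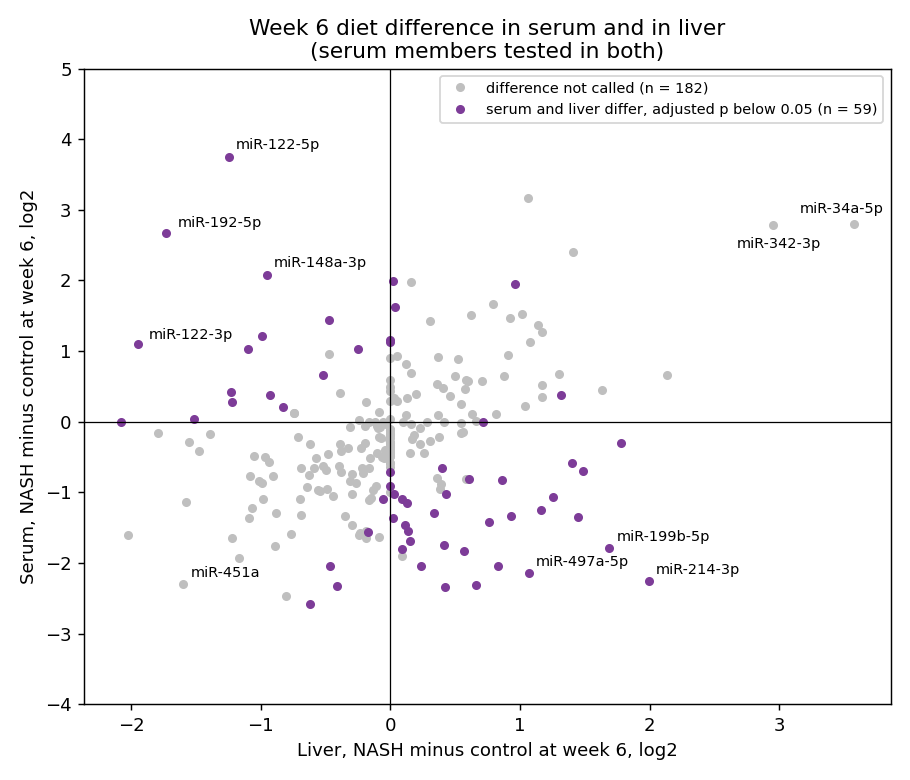
NASH minus control difference at week 6 in liver (x axis, log2) and in serum (y axis, log2) for serum miRNAs tested in both tissues. Purple points differ between the tissues at adjusted p below 0.05 (59 of the 241 shown). miR-122-5p, miR-192-5p and miR-148a-3p lie above 0 in serum and below 0 in liver, miR-214-3p lies in the opposite corner, and miR-34a-5p and miR-342-3p are above 0 in both.

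Detection differed with the diet as well. Of the 326 miRNAs, 206 were detected on all 4 arrays, 47 on both NASH arrays and no control array, and 13 on both control arrays and no NASH array. Detection on 1 diet alone fixes the direction, so the following counts are a description. Calls were made for 6 of the 47, among them miR-8109, miR-7040-5p and miR-122-3p, and for 3 of the 13, namely miR-181a-5p, miR-200c-3p and miR-155-5p. Of all 426 miRNAs tested 51 were called (12.0%), so the share among the 47 was close to that of all. miR-181a-5p, a miRNA of lymphocyte development, was at least 2.55-fold lower on NASH arrays in scaled signal (limma adjusted p = 0.0174). It was at the floor on 8 of the 12 serum arrays, so its p-value too rests on values with little spread. The other 60 miRNAs were detected on 1 array of at least 1 of the diets.

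Replicate agreement bounded these comparisons. Over the 206 miRNAs detected on all 4 arrays, the log2 difference between replicate arrays had an SD of 0.55 for the NASH pair and 0.76 for the control pair, against 1.15 for the diet difference. Of the 12 most raised and 12 most lowered calls, 5 passed without each of the 4 arrays in turn, namely miR-34a-5p, miR-8109, miR-7040-5p, miR-221-3p and miR-214-3p. A further 3 (miR-192-5p, miR-148a-3p and miR-486a-5p) were lost only without NASH array 2, where their adjusted p was 0.0764, 0.0817 and 0.0817, in that order. The other 16 were lost without at least 2 of the arrays.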

How the data were processed

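The authors deposited scanner intensity per spot for each array, extracted with Agilent Feature Extraction (11.5.1.1 per the file headers and 11.5 in the submitters' processing notes). The processed signal is background-subtracted, and the values do not show scaling between arrays. Control spots and outlier spots were left out and spots averaged per probe. Each array was divided by its 75th percentile over 253 probes well above background on all 12 serum arrays. Values were floored at 0.0381 scaled units, the arrays' median 5th percentile of signals well above background, and log2 was taken. The brightest probe stood for each miRNA. The 426 serum miRNAs detected on at least 2 of 12 arrays were tested with limma 3.58.1 in R 4.3.3 (6 diet-by-week groups, eBayes, Benjamini-Hochberg). Liver was treated alike, with 299 probes. Of the 4 arrays' values 40.1% lay at the floor, where arrays show no spread. Among the 51 calls, 6 lay at the floor on at least 8 of the 12 serum arrays. The number of arrays limits the precision.

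Named are the 12 most changed calls per direction with no overlap between diets, up to 5 per direction for the week and tissue contrasts, up to 4 per list, and 15 fixed miRNAs. Added after their values were seen were miR-22-3p, miR-193a-3p, miR-194-5p, miR-222-3p, miR-365-3p, miR-1249-3p, miR-712-5p, miR-181a-5p and miR-486b-3p. The members and the 14 miRNA lists were chosen with earlier results of these data known. The procedure was run on simulated data in which miRNAs varied independently, with planted differences. The simulation held no percentile or red cell index difference between diets, so it could not test how these affect the calls.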

Additional observations from a re-analysis of the deposited data

Results flagged for a closer look

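Effects that differed between tissues by the limma test of the difference itself were, for serum minus liver at week 6 (log2), 5.00 for miR-122-5p, 4.40 for miR-192-5p, 3.05 for miR-122-3p, 3.03 for miR-148a-3p and 2.20 for miR-21a-5p, in each of which serum lay above liver. In the other direction serum minus liver was -4.25 for miR-214-3p, -3.48 for miR-199b-5p, -3.21 for miR-497a-5p, -2.97 for miR-199a-3p and -2.88 for miR-200b-3p. For miR-21a-5p neither tissue's own difference passed (serum 1.21, limma adjusted p = 0.192, liver -0.99, limma adjusted p = 0.197). The serum differences of miR-122-5p, miR-199a-3p and miR-200b-3p did not pass either (limma adjusted p = 0.0557, 0.114 and 0.0557, in that order). In serum the week 6 difference minus the mean of weeks 1 and 2 was -0.58 for miR-155-5p, which was at the floor on 10 of the 12 serum arrays.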

How the results depend on the processing

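Counts are of miRNAs called at week 6 (in all, then higher and lower on NASH arrays), against 51, 23 and 28 as reported. Scaling to the 75th percentile over all probes gave 21, 19 and 2, no scaling 30, 29 and 1, the median 63, 31 and 32, quantile normalization 50, 29 and 21, and scaling without red cell probes 75, 20 and 55. Normexp background correction gave 349, 18 and 331, the deposited total gene signal 76, 38 and 38, and the mean of probes 38, 19 and 19. A floor 2 times as high gave 36, 17 and 19, and one 0.5 times as high 105, 36 and 69. Detection on all 12 serum arrays gave 62, 16 and 46, detection on 2 of the 4 arrays 79, 25 and 54, no filter 3, 2 and 1, the 4 arrays fitted alone 1, 0 and 1 (93 unadjusted), slide row as a block 83, 25 and 58, and the red cell index as a covariate 0, 0 and 0 (17 unadjusted). Leaving out 1 of the 4 arrays gave 12 to 69, 7 to 28 and 3 to 41, the lowest total without NASH array 2 and 19 without control array 1; the lone array is then assumed to vary like the other groups. Leaving out control array 2 of week 1, which had the most outlier spots and was chosen after seeing the data, gave 29, 12 and 17. The causes were not tested.

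The contrast between weeks (1 call as reported) gave 6 with the median, 0 with no scaling, normexp, a lower floor, detection on 2 of the 4 arrays and the covariate, 2 with quantile normalization, without red cell probes, with the mean of probes and a higher floor, 5 with total gene signal, 11 with detection on all 12 arrays, 12 with slide row, 2 to 22 without 1 of the arrays and 3 without control array 2 of week 1. Serum minus liver (68 calls) gave 32 with all probes, 29 with no scaling, 39 with detection on all 12 arrays and 38 to 104 without 1 of the arrays, and was not run without a filter. The red cell index (-2.54) was -2.38 after quantile normalization and -2.29 with miR-486a-5p in place of miR-451a.

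Signs changed for miR-223-3p (0.46) and miR-10a-5p (0.38) with all probes, and with no scaling for miR-16-5p (0.036), miR-223-3p (0.76), miR-25-3p (0.034), miR-20a-5p (0.10), miR-10a-5p (0.69), miR-378a-5p (0.010) and miR-30c-5p (0.29). With normexp they changed for miR-6392-3p (-0.060), miR-139-3p (-0.040), miR-122-3p (-0.26) and miR-132-3p (-0.17). With the covariate they changed for miR-451a (0.19), miR-16-5p (0.54), miR-223-3p (0.91), miR-203-3p (0.058), miR-1a-3p (2.38), miR-499-5p (0.013), let-7i-5p (0.22), let-7c-5p (1.06), let-7f-5p (1.95), let-7a-5p (1.59), miR-106b-5p (0.017), miR-20a-5p (0.50), miR-10a-5p (0.64), miR-126a-5p (0.066) and miR-30c-5p (0.37). Leaving out 1 of the 4 arrays in turn gave -0.11 to 0.61 for miR-23a-3p and -0.012 to 0.75 for miR-24-3p, below 0 without NASH array 1, and -0.76 to 0.017 for miR-10a-5p, above 0 without NASH array 2. No paired analysis was possible because 1 NASH array of week 6 carries no number, so that the titles give the diets only 1 shared number. Slide row equals the number on all 23 arrays whose title has one, and the fit with slide row as a block stood in for a replicate block (83 calls and 12 in the contrast between weeks).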
